A study of Mus musculus with 8 samples.

Results

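A set of 10 genes that encode proteins of the secondary (specific) granules of neutrophils was followed in the RNA of sorted mouse neutrophils: Ltf, Lcn2, Hp, Camp, Ngp, Pglyrp1, Fcnb, Chil3, Chil1 and Cd177. They were taken by name as textbook members of this granule class, at a time when earlier results of these data were known. These are 10 of the 55414 genes listed in the count files, and all 10 passed the filter on low counts, which left 16778 genes for testing. The files measure RNA of these genes and not the amount of granule protein.

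Neutrophils load their granules in a fixed order while they mature in the bone marrow. Primary (azurophil) granules are filled first with enzymes such as myeloperoxidase and elastase, secondary granules follow at the myelocyte and metamyelocyte stages, and gelatinase granules are made last. Each set of genes is transcribed mainly at its own stage, the transcription factor C/EBPε is needed for the secondary set, and the RNA of secondary granule genes is known to decline as the nucleus becomes segmented, while the protein stays in the granule.

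The study asked how the loss of CXCR2, the chemokine receptor that draws neutrophils out of the marrow and into tissue, changes their maturation and function. Splenocytes of WT and *Cxcr2-/-* mice, all 10 weeks old and on the FVB background, were enriched for CD11b and sorted as CD45+ CD11b+ Ly6G+ F4/80- cells, and 1 RNAseq library was made per mouse (4 WT and 4 *Cxcr2-/-* mice). The *Cxcr2-/-* allele was inherited and so was carried by all cells of these animals, not by neutrophils alone, and no treatment of the mice is named. Each WT library held 34220182 to 46233555 counts on genes and each *Cxcr2-/-* library 37549648 to 43789253. Levels are given as CPM, the counts of a gene scaled to the TMM-normalized size of its library.

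Cxcr2 itself fell from 1956 ± 221 CPM in WT libraries to 17.1 ± 3.46 CPM in *Cxcr2-/-* libraries (SD, n = 4 each), and every library followed its label. The 9 neutrophil markers summed to between 32797 and 47062 CPM in WT and between 67660 and 81598 CPM in *Cxcr2-/-* libraries. Most of both sums came from S100a8 (mean 12054 CPM in WT against 28418.5 in *Cxcr2-/-*) and S100a9 (13530 against 33865). Of the 9 markers, 5 were called higher and 2, Csf3r and Cxcr2, lower. The summed marker levels of other cell types were 63.1 to 143 CPM in WT against 28.3 to 63.4 in *Cxcr2-/-* for 6 B cell genes, 98.4 to 118 against 97.2 to 142 for 7 T and NK cell genes, 48.8 to 69.2 against 37.8 to 64.4 for 5 eosinophil genes, 1.76 to 4.20 against 1.58 to 11.3 for 5 erythroid genes, 5.88 to 7.88 against 3.85 to 6.29 for 4 platelet genes, 5.59 to 15.4 against 3.02 to 5.88 for 4 dendritic cell genes, and 0.0402 to 0.531 against 0.534 to 0.885 for 4 basophil and mast cell genes. Cd3d provided most of the T and NK cell sum and Siglecf most of the eosinophil sum, while among the weakly expressed genes of these lists Nkg7, Prg2 and Epx were called higher (log2 fold changes 2.48, 2.87 and 2.78) and Cd4 and Ccr3 lower (-2.20 and -1.15). The libraries also differed in their read totals. Read pairs that met no gene made up 31.4%, 40.0%, 41.5% and 40.0% of all pairs in WT replicates 1 to 4 and 26.7%, 30.1%, 29.9% and 31.9% in *Cxcr2-/-* replicates 1 to 4. Pairs not aligned uniquely made up 8.23% to 11.2% in WT and 10.4% to 13.3% in *Cxcr2-/-* libraries.

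All 10 genes were higher in *Cxcr2-/-* neutrophils. In each of them the lowest *Cxcr2-/-* mouse lay above the highest WT mouse, a pattern found for 22.5% of all 16778 genes tested in this direction and for 19.1% in the opposite one. Each was called higher (adjusted p under 0.05 and at least 1.5-fold), as were 15.7% of all genes tested, with the same percentage called lower. By the adjusted p alone, 23.7% of all genes were higher and 21% lower. The median log2 fold change of the 10 genes was 1.25, against 0.01 over all genes tested. Most of these are abundant transcripts, and all but Chil1 (9.81) and Fcnb (5.93) reached an average log2 CPM of 10. Of the 96 genes tested that reached it, these members included, 29 (30.2%) were called higher and 27.1% lower. The median log2 fold change of the 96 was 0.19. In RNA from a sorted population, more cells at a stage that transcribes these genes and more of their RNA per cell cannot be told apart.

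**Figure D1:**
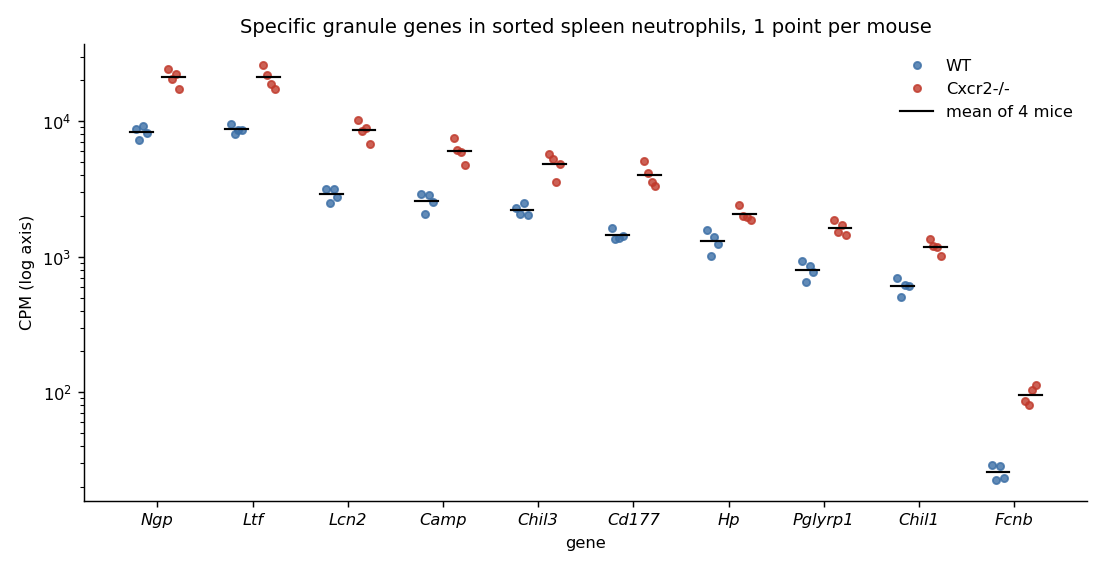
Level of each of the 10 genes in CPM on a log axis, with 1 point per mouse (4 WT in blue, 4 *Cxcr2-/-* in red, in the order of replicates 1 to 4) and a line at the mean of the group. For every gene the *Cxcr2-/-* points lie above all WT points, from Fcnb (25.9 against 96.3 CPM) to Ltf (8699.9 against 21059 CPM).

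The upstream sequences of these genes are shown because members that move together can be read beside the sequence in front of their start sites. RefSeq promoters (GRCm38.p6) matched 9 of the 10 genes by symbol, Hp being the exception, and the 250 bases before each start were searched on both strands for the letters TTGCNNAA, a common form of the C/EBP site, for GAGGAA, the core of the PU.1 site, and for TATAAA. None of the matches listed here overlapped another. The C/EBP letters were present in 4 of the 9 genes (Ltf, Ngp, Lcn2 and Fcnb), and in 9.56% of all 32851 promoters of the same length. PU.1 letters occurred in 4 (Ltf, Lcn2, Cd177 and Pglyrp1) against 23.3% of all promoters, and TATAAA in Cd177 alone against 12.4%. Ltf held its C/EBP letters at positions -75 to -68 from the start, Ngp at -138 to -131 and again at -11 to -4, Lcn2 at -216 to -209, and Fcnb at -235 to -228 and at -123 to -116. The Lcn2 matches for C/EBP and PU.1 and the second Ngp match lay past the first base of an annotated exon of the gene. Before that base, 3 genes held C/EBP letters and 3 held PU.1 letters. A match is a description of letters and not of a bound site. The 4 sequences below are 3 genes with such letters and Cd177 without them, each written 5′ to 3′ on the strand of the gene up to its first annotated exon, with the C/EBP letters in capitals. They lie at chr9:111019042-111019270 (plus strand, Ltf), chr9:110419558-110419746 (plus strand, Ngp), chr2:28084886-28085128 (minus strand, Fcnb) and chr7:24760312-24760561 (minus strand, Cd177).
Ltf: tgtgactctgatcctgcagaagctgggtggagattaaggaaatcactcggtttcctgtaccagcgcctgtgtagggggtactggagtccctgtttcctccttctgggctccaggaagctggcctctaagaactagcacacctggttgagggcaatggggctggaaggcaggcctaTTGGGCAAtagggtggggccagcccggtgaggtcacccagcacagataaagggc
Ngp: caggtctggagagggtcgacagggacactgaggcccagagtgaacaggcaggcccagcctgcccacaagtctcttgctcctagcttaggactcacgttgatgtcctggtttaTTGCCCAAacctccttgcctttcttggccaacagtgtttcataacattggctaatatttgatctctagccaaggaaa
Fcnb: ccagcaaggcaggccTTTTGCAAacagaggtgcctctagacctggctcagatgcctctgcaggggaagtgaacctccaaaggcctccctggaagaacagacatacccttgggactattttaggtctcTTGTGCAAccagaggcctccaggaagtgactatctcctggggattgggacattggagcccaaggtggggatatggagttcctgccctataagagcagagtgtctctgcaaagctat
Cd177: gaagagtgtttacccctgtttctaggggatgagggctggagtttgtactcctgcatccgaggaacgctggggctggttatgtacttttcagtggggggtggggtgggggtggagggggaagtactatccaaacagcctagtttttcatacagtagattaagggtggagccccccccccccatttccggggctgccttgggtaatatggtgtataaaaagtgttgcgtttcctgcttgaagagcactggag

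Among the genes for metal and haem binding, Ltf encodes lactoferrin, the iron-binding protein that withholds iron from bacteria and the classical marker of the secondary granule (ENSMUSG00000032496, chr9:111019271-111042767, plus strand, GRCm38). Its level was 9481, 8037, 8632 and 8649 CPM in WT replicates 1 to 4 and 26104, 21782, 18959 and 17392 CPM in *Cxcr2-/-* replicates 1 to 4. The WT mice lay close together, the *Cxcr2-/-* mice were spread more widely, with replicate 1 the highest, and the groups did not overlap. The mean rose from 8699.9 ± 594 to 21059 ± 3822 CPM (SD, n = 4 each), a log2 fold change of 1.28 (SE 0.15) with a Benjamini-Hochberg adjusted p of 2.98e-05 in edgeR's quasi-likelihood test.

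Lcn2 encodes lipocalin 2, which captures the siderophores that bacteria use to take up iron (ENSMUSG00000026822, chr2:32384633-32388252, minus strand). WT replicates 1 to 4 had 3179.5, 2476, 3163 and 2753 CPM, and *Cxcr2-/-* replicates 1 to 4 had 10186, 8506, 8962 and 6819.9 CPM. Even the lowest *Cxcr2-/-* mouse stood far above the highest WT mouse. The log2 fold change was 1.57 (SE 0.15), from 2893 ± 341 to 8619 ± 1393 CPM, with an adjusted p of 4.79e-06 (edgeR's quasi-likelihood test, Benjamini-Hochberg). Only Fcnb, described with the recognition proteins, had a larger fold change among the 10.

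Hp encodes haptoglobin, which binds free haemoglobin and is stored in secondary granules besides its release by the liver (ENSMUSG00000031722, chr8:109575128-109579172, minus strand). Its level was 1582, 1018, 1393 and 1247 CPM in the WT mice and 2415, 1991, 1955 and 1873 CPM in the *Cxcr2-/-* mice, in replicate order. The groups did not overlap, but they came closer to each other than for any other member, with WT replicate 1 next to the lowest *Cxcr2-/-* mouse. With 1310.02 ± 238 CPM in WT and 2059 ± 243 CPM in *Cxcr2-/-* the log2 fold change was 0.65 (SE 0.14), the smallest of the 10, with an adjusted p of 0.00268 (edgeR's quasi-likelihood test, Benjamini-Hochberg). The fold change of Hp fell under 1.5-fold, with the adjusted p still under 0.05, when WT replicate 2 was left out (log2 0.52), when *Cxcr2-/-* replicate 1 was left out (0.57), with upper-quartile normalization (0.53) and with total-count scaling (0.56). When the percent of pairs that met no gene was added as a covariate, Hp was at 0.29 with an edgeR adjusted p of 0.358. The other 9 genes stayed called. This alternative was chosen after the data were seen, and the percent differed between the genotypes, so the covariate was partly confounded with genotype.

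The cathelicidin genes lie together with Ltf on chromosome 9. Camp encodes the precursor of CRAMP, the antimicrobial peptide of the mouse cathelicidin family (ENSMUSG00000038357, chr9:109847379-109849617, minus strand). It was at 2904, 2067, 2869.5 and 2518 CPM in WT replicates 1 to 4 and at 7460.3, 6089, 5955 and 4757 CPM in *Cxcr2-/-* replicates 1 to 4. The groups stood clearly apart, with replicate 1 highest in both and replicate 2 the lowest WT mouse. From 2589 ± 390 to 6065 ± 1106 CPM the log2 fold change was 1.23 (SE 0.16), with an adjusted p of 5.72e-05 (edgeR's quasi-likelihood test, Benjamini-Hochberg).

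Ngp encodes neutrophilic granule protein, which carries the same cathelin-like domain and is among the most abundant transcripts of maturing neutrophils (ENSMUSG00000032484, chr9:110419747-110423012, plus strand). The WT mice had 8808, 7236, 9222 and 8164 CPM and the *Cxcr2-/-* mice had 24263, 20447, 22375 and 17243 CPM, in replicate order. All *Cxcr2-/-* values lay above the WT range, with replicate 4 the lowest of them. Its mean rose from 8357 ± 865 to 21082 ± 2996 CPM, a log2 fold change of 1.33 (SE 0.15) and an adjusted p of 1.72e-05 (edgeR's quasi-likelihood test, Benjamini-Hochberg).

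Camp, Ngp and Ltf lie within 1195 kb of each other (chr9:109847379-111042767), 570 kb apart for Camp and Ngp and 596 kb for Ngp and Ltf. Most of the genes between them were not called in the direction of these 3. Over all genes tested, 15.7% were called higher and 15.7% lower. Of 14 other protein-coding genes tested in this interval, 3 were called higher (Cdc25a, Smarcc1 and Elp6), 2 were called lower (Kif9 and Pth1r) and 9 were called in neither direction, with a median log2 fold change of 0.04 over the 14. Of these 9, Map4 (higher), Setd2 and Ptpn23 (both lower) passed the adjusted p alone. The remaining members lie on other chromosomes, except that Cd177 and Pglyrp1 share chromosome 7 and that Lcn2 and Fcnb lie 4300 kb apart on chromosome 2. Chil1 is on chromosome 1, as is Cxcr2, but 60021 kb away from it.

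Pglyrp1 and Fcnb recognize microbial surfaces. Pglyrp1 encodes a secreted peptidoglycan recognition protein that binds bacterial cell walls (ENSMUSG00000030413, chr7:18871331-18890459, plus strand). Its level was 927, 647, 860.3 and 769 CPM in WT replicates 1 to 4 and 1868, 1532, 1728 and 1436 CPM in *Cxcr2-/-* replicates 1 to 4. Each *Cxcr2-/-* mouse exceeded each WT mouse, and the log2 fold change was 1.04 (SE 0.13), from 801 ± 121 to 1641 ± 194 CPM, with an adjusted p of 5.59e-05 (edgeR's quasi-likelihood test, Benjamini-Hochberg).

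Fcnb encodes ficolin B, a lectin that can start the lectin pathway of complement (ENSMUSG00000026835, chr2:28076378-28084885, minus strand). It was the lowest of the 10 per length, as given with the levels per kb, and the one with the largest fold change. The WT mice had 29.3, 22.5, 28.6 and 23.2 CPM and the *Cxcr2-/-* mice 87.0, 81.2, 104 and 113 CPM, in replicate order, on 801 to 1325 counts per WT library and 2933 to 4644 per *Cxcr2-/-* library. *Cxcr2-/-* replicates 3 and 4 were the highest here, unlike in the other 9 genes, where replicate 1 was. The mean rose from 25.9 ± 3.55 to 96.3 ± 14.8 CPM, a log2 fold change of 1.89 (SE 0.13) and an adjusted p of 4.28e-07 (edgeR's quasi-likelihood test, Benjamini-Hochberg). Among the log2 fold changes of all genes tested, that of Fcnb was at percentile 98.6, that of Hp at 83.5 and those of the other 8 between 91.4 and 97.4. The same 2 libraries were also the highest of their group for the 6 primary granule genes summed, at 82.7, 81.1, 248 and 399 CPM in *Cxcr2-/-* replicates 1 to 4, and for the 5 erythroid genes summed, at 1.87, 1.58, 10.9 and 11.3 CPM, and their part in the level of Fcnb was not tested.

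The chitinase-like proteins bind chitin or related sugars without cleaving them. Chil3 encodes Ym1, a protein of neutrophils and of alternatively activated macrophages (ENSMUSG00000040809, chr3:106147554-106167564, minus strand). It stood at 2298, 2073, 2484 and 2048 CPM in the WT mice and at 5705, 5229, 3551 and 4802 CPM in the *Cxcr2-/-* mice, in replicate order. *Cxcr2-/-* replicate 3 was low for this gene but still above all WT mice. The log2 fold change was 1.12 (SE 0.15), from 2226 ± 206 to 4822 ± 924 CPM, with an adjusted p of 7.62e-05 (edgeR's quasi-likelihood test, Benjamini-Hochberg). Chil3 and Chil4 are close paralogs, so that some of their reads may not have been placed on one gene. Chil4 averaged 0.608 ± 0.0945 CPM in WT libraries against 1.46 ± 0.352 CPM in *Cxcr2-/-* libraries, and pairs not aligned uniquely were not counted on any gene.

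Chil1 encodes a secreted chitinase-like glycoprotein also known as BRP-39 in the mouse (ENSMUSG00000064246, chr1:134182176-134190181, plus strand). WT replicates 1 to 4 had 701, 502, 619 and 609 CPM, and *Cxcr2-/-* replicates 1 to 4 had 1352, 1206, 1175 and 1009 CPM. The groups did not overlap, and the spread within each was near 13.4% (WT) and 11.9% (*Cxcr2-/-*) of the mean. Its log2 fold change was 0.96 (SE 0.13), from 608 ± 81.4 to 1186 ± 141 CPM, with an adjusted p of 6.45e-05 (edgeR's quasi-likelihood test, Benjamini-Hochberg). Chil1 and Hp were the 2 genes of the 10 that rose by less than 2-fold, and 8 genes would be called at a threshold of 2-fold, as would 7.48% of all genes tested.

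Hp and Chil3 are also made by monocytes and macrophages. The 10 marker genes of those cells summed to between 708 and 826 CPM in WT and to between 850 and 979 CPM in *Cxcr2-/-* libraries. Ly6c2 and Csf1r provided most of these sums and moved in opposite directions. Ly6c2 went from a mean of 239 ± 35.1 to 627 ± 38.4 CPM and Csf1r from 442 ± 41.1 to 232 ± 42.1 CPM. Of the 10, Ly6c2 and Ccr2 were called higher, Csf1r and Adgre1 (F4/80, which the sort removed) were called lower, and 6 did not pass. None was at 0 in all libraries of a group, and the C1q genes had group means between 0.899 and 2.37 CPM. These means hide a difference between WT mice. WT replicate 2 had 5.79 CPM of C1qa, 6.39 of C1qb, 5.04 of C1qc and 22.2 of Vcam1, the highest of all libraries. Vcam1 was at 1.79 to 6.90 CPM in the other WT libraries. Ly6c2, Csf1r and Cx3cr1 were highest among WT libraries in replicate 1. WT replicate 2 was also the lowest WT library for 9 of the 10 granule genes. The part of these cells in the levels of Hp and Chil3 was not tested.

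Cd177 is the membrane protein of the set, a surface glycoprotein held by a lipid anchor that is stored in secondary granule membranes and binds PECAM1 (ENSMUSG00000052212, chr7:24743983-24760311, minus strand). Its level was 1622, 1343, 1374 and 1417 CPM in WT replicates 1 to 4 and 5095, 4145, 3541 and 3332 CPM in *Cxcr2-/-* replicates 1 to 4. WT mice were close to each other, with a coefficient of variation of 8.75%, while that of the *Cxcr2-/-* mice was 19.6%, and the groups were well separated. From 1439 ± 126 to 4028 ± 790 CPM the log2 fold change was 1.49 (SE 0.15), with an adjusted p of 6.27e-06 (edgeR's quasi-likelihood test, Benjamini-Hochberg).

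**Figure D2:**
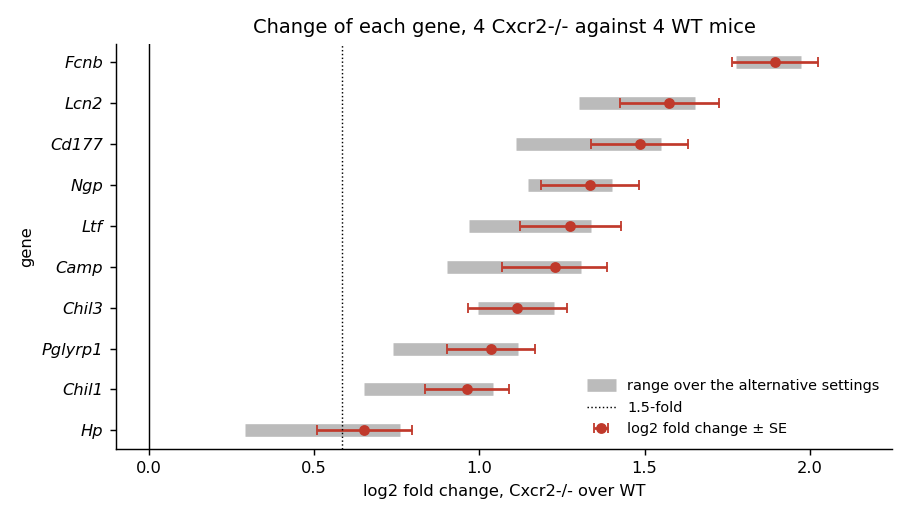
Log2 fold change of each of the 10 genes, *Cxcr2-/-* over WT, with its SE (red, n = 4 mice per group), the range of its estimate over 17 other settings (grey) and a dotted line at 1.5-fold. Point estimates run from 0.65 for Hp to 1.89 for Fcnb, and the grey range crosses the dotted line for Hp only.

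The 10 genes together took 3.14%, 2.74%, 3.20% and 2.85% of all counts on genes in WT replicates 1 to 4 and 7.64%, 6.83%, 6.72% and 6.04% in *Cxcr2-/-* replicates 1 to 4. That was 2.98% ± 0.22 against 6.81% ± 0.65 (SD, n = 4 each), a ratio of means of 2.28, and no test was made of this sum. Ltf and Ngp provided most of these counts in both genotypes, without correction for length. Without Ltf, the other 9 genes took 2.08% ± 0.20 and 4.78% ± 0.42. Mitochondrial transcripts are often used as a sign of RNA and cell quality. They took 1.29%, 1.01%, 1.29% and 1.03% of the counts in WT replicates 1 to 4. In *Cxcr2-/-* replicates 1 to 4 they took 1.28%, 2.04%, 2.82% and 3.29%. Their share was above the WT range in 3 of the 4 *Cxcr2-/-* libraries, and within that genotype the library with the lowest mitochondrial share had the highest share on the granule genes and the one with the highest had the lowest. The primary granule genes summed to 82.7, 81.1, 248 and 399 CPM in *Cxcr2-/-* replicates 1 to 4. With mitochondrial counts taken out of the total, the 10 genes had 3.18%, 2.76%, 3.24% and 2.88% in WT libraries. They then had 7.74%, 6.98%, 6.92% and 6.25% in *Cxcr2-/-* libraries. Any further part of RNA quality or of the stage of the cells in these levels was not tested.

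The order of the 10 genes by level was taken per length, as CPM per kb of annotated exon. Ngp led in both groups, with 6839 ± 708 CPM per kb in WT and 17252 ± 2452 in *Cxcr2-/-* mice, followed by Camp (3416 ± 514 and 8002 ± 1459) and Ltf (2522 ± 172 and 6104 ± 1108). Fcnb was last, at 19.3 ± 2.65 and 71.9 ± 11.0 CPM per kb. In WT mice the order between them was Chil3, Lcn2, Hp, Cd177, Pglyrp1 and Chil1. Lcn2 moved ahead of Chil3 and Cd177 ahead of Hp in *Cxcr2-/-* mice. Neither exchange was seen with the longest transcript as the length, where Lcn2 led Chil3 and Hp led Cd177 in both groups. By that length, Hp (rank 6) was ahead of Pglyrp1 (rank 7) in WT mice, and these ranks were exchanged in *Cxcr2-/-* mice. By annotated exon length, the ranges of 4 mice overlapped between the neighbours Camp and Ltf in both groups. They also overlapped between Lcn2 and Hp and between Cd177 and Pglyrp1 in WT mice. In *Cxcr2-/-* mice they overlapped between Lcn2 and Chil3 and between Cd177 and Hp. Within single libraries, where both genes come from the same mouse, the order of these neighbours held in all 4 mice, and in 3 of 4 for Lcn2 and Chil3. Among 12151 protein-coding genes, Ngp ranked 3 per length in both groups, Lcn2 went from rank 20 to 10, Cd177 from 36 to 15, Chil1 from 163 to 60 and Fcnb from 1859 to 514.

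The 10 genes did not rise by the same factor. For each of the 45 pairs, the log2 ratio of the counts of both genes was taken within each library, which removes library size, and compared between the genotypes by an exact permutation test (two-sided), whose smallest possible p with 4 mice against 4 is 0.0286. In 26 of the 45 pairs the ratios of the genotypes did not overlap, and all 26 had this smallest p, 0.0495 after Benjamini-Hochberg adjustment over the 45 pairs. The adjusted value lies under 0.05 only because so many pairs share the smallest p. Pairs share members and are not independent of each other. How often pairs of other genes separate in this way was not examined. Among single genes tested, 22.5% were higher and 19.1% lower in *Cxcr2-/-* mice without overlap.

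Hp rose less than its partner in each of its 9 pairs, and in 8 of them the ratios of the genotypes did not overlap. The ratios overlapped for Chil3 and Hp (difference 0.43 on the log2 scale, exact permutation p = 0.0571, adjusted 0.0829). The counts of Lcn2 were 2.01, 2.43, 2.27 and 2.21 times those of Hp in WT replicates 1 to 4 and 4.22, 4.27, 4.58 and 3.64 times in *Cxcr2-/-* replicates 1 to 4. That is a difference of 0.90 on the log2 scale, with no overlap between the genotypes. The widest gap of all pairs was between Fcnb and Hp, at 1.23. Counting only pairs without overlap between the genotypes, Lcn2 and Fcnb were the genes that rose more than a partner most often, in 7 pairs each.

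The ratios of Ltf to the cathelicidin genes overlapped between the genotypes. The counts of Ltf were 3.27, 3.89, 3.01 and 3.44 times those of Camp in WT and 3.50, 3.58, 3.18 and 3.66 times in *Cxcr2-/-* mice, a log2 difference of 0.04 (exact permutation p = 0.714), and the difference was 0.07 between Ngp and Ltf (p = 0.543, exact permutation test). The ratio of Cd177 to Ltf varied little within a genotype, with SDs of 0.04 in WT and 0.03 in *Cxcr2-/-* mice on the log2 scale, the latter the lowest of any pair in that group. It was nonetheless 0.21 higher in *Cxcr2-/-* mice, without overlap. Within the summed counts of the 10 genes, Hp went from 4.50% to 2.93%, Lcn2 from 9.98% to 12.2%, Ltf from 30.1% to 29.7% and Ngp from 28.9% to 29.9%.

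**Figure D3:**
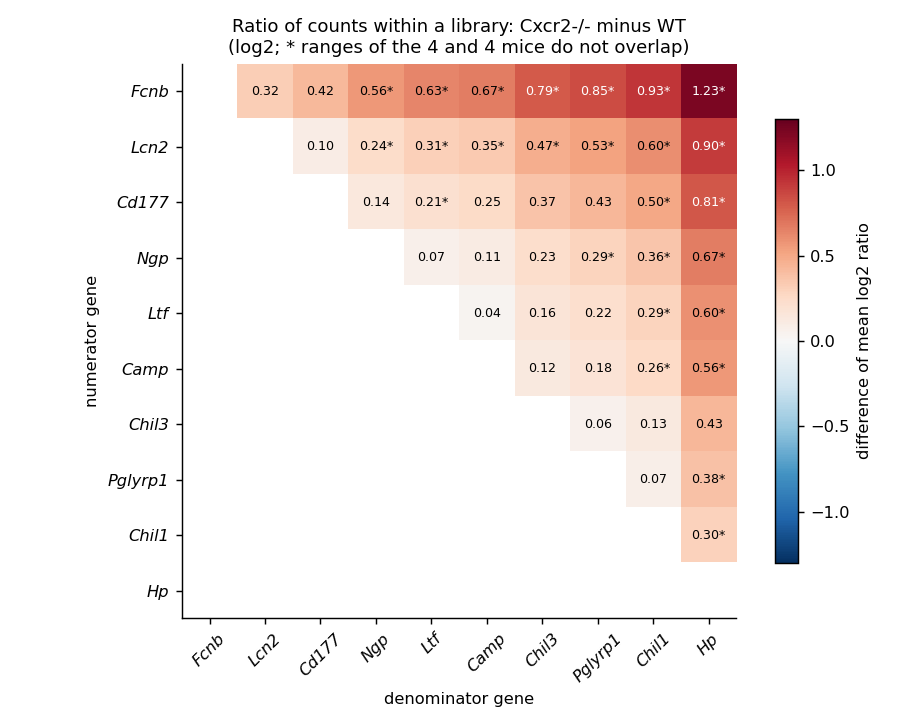
Difference of the mean log2 count ratio of each gene pair, *Cxcr2-/-* minus WT (n = 4 mice each), with the numerator gene in rows and the denominator gene in columns, ordered by fold change. A star marks the 26 of 45 pairs whose ratios did not overlap between the genotypes, and in every row the largest value is in the column of Hp, up to 1.23 with Fcnb.

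Within a genotype, the 10 genes mostly went up and down together from mouse to mouse. WT replicate 1 was the highest WT library for 8 genes and WT replicate 2 the lowest for 9, and *Cxcr2-/-* replicate 1 was the highest of its group for 9 and *Cxcr2-/-* replicate 4 the lowest for 8. As a description over the 8 libraries, after the mean of each genotype was taken away from log2 CPM, Pearson's r between each gene and the mean of all 10, itself included, was 0.98 for Camp, 0.96 for Hp and Chil1, 0.93 for Lcn2 and Pglyrp1, 0.89 for Ngp, 0.87 for Ltf and 0.83 for Cd177. Chil3 (0.54) and Fcnb (0.08) stood apart from that common variation. Libraries share depth, scaling and RNA quality across all genes, and these values carry no test.

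**Figure D4:**
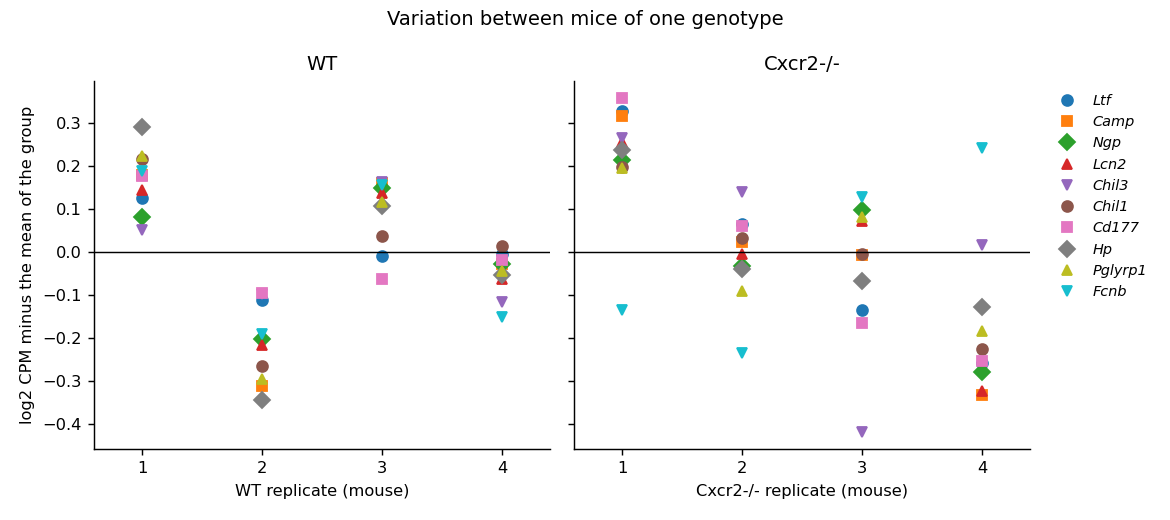
Deviation of each gene from its genotype mean in log2 CPM, 1 symbol per gene, for the 4 WT mice (left) and the 4 *Cxcr2-/-* mice (right). Most genes lie together within a mouse, above the mean in replicate 1 of both groups, whereas Chil3 in *Cxcr2-/-* replicate 3 and Fcnb in *Cxcr2-/-* replicates 1, 2 and 4 lie apart.

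Other genes followed the same course between mice. Among 4226 genes whose average log2 CPM reached 5, those most like the mean of the granule genes, by the same r over 8 libraries, included Lypla2, Plp2, Lamtor4, Itm2b, Pilra, Tmem40, Cdkn2d, Ltb4r1 and Usb1, with r from 0.995 down to 0.975. An r of at least 0.9 was reached by 153 of these genes (3.62%). Likeness between mice did not go with the difference between genotypes for all 9 genes named. Tmem40 (log2 fold change 1.27), Cdkn2d (0.98), Ltb4r1 (0.93), Lamtor4 (0.91) and Plp2 (0.69) were called higher, Lypla2 (0.42) had an adjusted p under 0.05 at less than 1.5-fold, and Usb1 (0.22), Itm2b (0.05) and Pilra (-0.16) did not pass.

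Of 12 further genes whose products are found in specific granules, 11 were tested, 6 were called higher and none lower, with a median log2 fold change of 0.74. The NADPH oxidase subunits of the granule membrane were among them, Cybb at 1.12 and Cyba at 0.74, as were Lrg1 (1.29), Orm1 (1.01), Stom (0.93) and the lysozyme gene Lyz2 (0.86). Mmp8, the neutrophil collagenase, passed the adjusted p alone (0.50). Olfm4, a specific granule protein of a subset of neutrophils, averaged 752 ± 113 CPM in WT against 620.5 ± 31.3 CPM in *Cxcr2-/-* mice, with overlapping groups (log2 -0.28, Benjamini-Hochberg adjusted p 0.0688 in edgeR). Itgam, Slpi and Plaur did not pass either, and Ptx3 was not tested.

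The granule classes made before and after the secondary set were looked at in the same way. All 6 primary granule genes were called higher, with a median log2 fold change of 4.72 (Mpo 4.58, Elane 5.15), from a summed level of 9.66 to 22.2 CPM in WT to one of 81.1 to 399 CPM in *Cxcr2-/-* mice. Among 4 gelatinase granule genes, Mmp25 (1.04) and Mmp9 (0.64) were called higher, and Cfp (0.41) and Adam8 (-0.48) passed the adjusted p alone, with a median of 0.53. These counts carry no test of the lists against each other.

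Of 11 transcription factors that act on granule genes, 10 were tested, 4 were called higher and 1 lower, with a median of 0.26. Cebpe, which encodes the C/EBPε required for secondary granule genes, was at 89.4, 77.4, 77.7 and 86.3 CPM in WT replicates 1 to 4 and at 252, 187, 165 and 138 CPM in *Cxcr2-/-* replicates 1 to 4. Its groups did not overlap, and within the *Cxcr2-/-* group the mice had the same order as for Ltf, Camp, Chil1, Cd177 and Hp. Klf5, Mmp9 and Mmp25 had this order too, so it was not particular to Cebpe. The log2 fold change of Cebpe was 1.17 (SE 0.15), with an adjusted p of 6.58e-05 (edgeR's quasi-likelihood test, Benjamini-Hochberg). It lost its call with the covariate for pairs outside genes, which was partly confounded with genotype (0.76, edgeR adjusted p 0.0602). Myb (0.90), Klf5 (0.75) and Gfi1 (0.64) were also called higher and Cebpb, known for emergency and late stages, was called lower (-1.01), while Spi1, which encodes PU.1, was at -0.01 and did not pass.

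Among 13 receptors and partners of the 10 proteins, 10 were tested, 2 were called higher and 1 lower, with a median of 0.41. Fpr2, a receptor for cathelicidin peptides, was at 0.99 and Pecam1, the ligand of CD177, at 0.64 at a level of 10.3 ± 1.40 to 16.1 ± 0.81 CPM. Trem1, the receptor that PGLYRP1 engages, moved against its partner, from 1214 ± 103 CPM in WT to 388 ± 80.0 CPM in *Cxcr2-/-* mice (log2 -1.65, edgeR adjusted p 2.80e-06). Lrp1, Lrp2, P2rx7, Cd163, Masp2, Tmem219 and Itln1 did not pass. Of 8 paralogs, 5 were tested: Chil5 (0.94) and Chil4 (1.26) were called higher, Pglyrp4 (-0.72) was called lower, Fcna and Pglyrp2 did not pass, and the median was -0.72.

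Genes of cell division and of late neutrophils were set beside them. All 10 cell division genes were called higher, with a median of 1.97 and a summed level of 298 to 348 CPM in WT and 947 to 1047 CPM in *Cxcr2-/-* mice. Of 10 genes tied to late or activated neutrophils, 7 were called lower, among them Cd101 (-1.78) and Csf3r (-1.06), and 2 higher, Ly6g (1.26) and Retnlg (0.82), with a median of -1.25. The part that these differences have in the levels of the 10 granule genes was not tested.

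**Figure D5:**
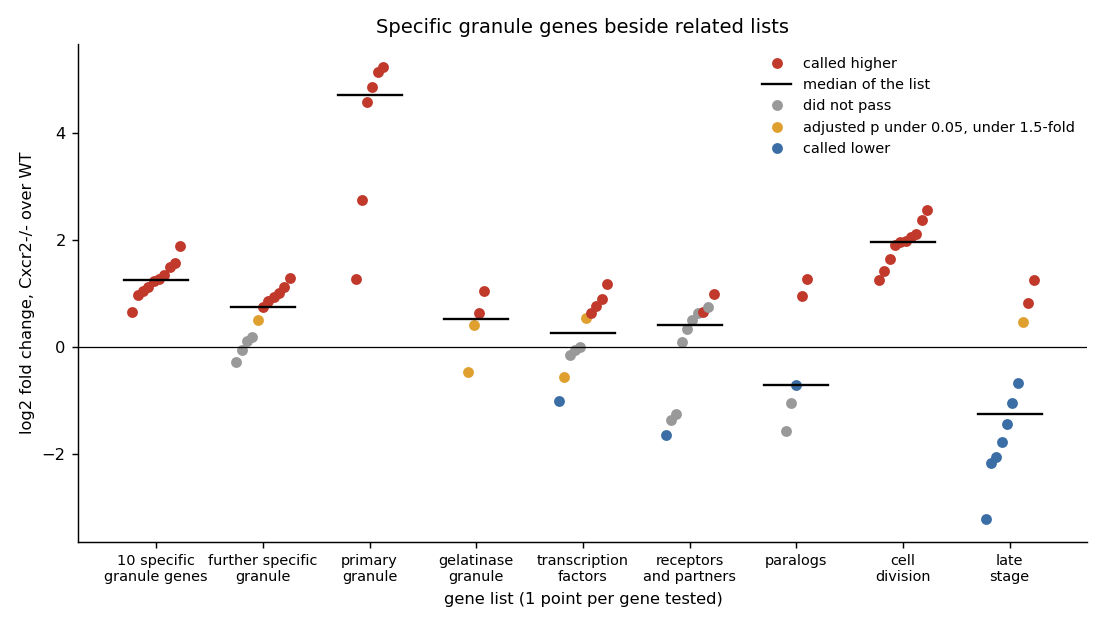
Log2 fold change of each gene tested, *Cxcr2-/-* over WT, for the 10 specific granule genes and 8 related lists, coloured by its call, with a line at the median of each list. All genes of the secondary set, the primary granule and cell division lists are called higher, with medians of 1.25, 4.72 and 1.97, whereas the late stage list has a median of -1.25.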

How the data were processed

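Neutrophil RNA of 4 WT and 4 *Cxcr2-/-* mice was analysed. For each mouse, RNA freed of ribosomal RNA was made into 1 directional library, read from both ends over 150 bases and checked with FastQC. The authors trimmed reads to at least 120 bases, aligned them to mm10 with STAR and deposited HTSeq counts per gene, whole numbers without normalization. Tool versions, the annotation release and the strand setting are not given in the sources used here. Of 55414 identifiers, 52133 were matched to GENCODE M21 (GRCm38) for symbols, positions and exon lengths; 52096 carried a higher version number than there, and identifiers without an entry held 1.42% of counts. Totals that HTSeq lists beside the genes were left out of library sizes and tests.

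Counts were compared with edgeR 4.0.16 in R 4.3.3 (TMM, filterByExpr, quasi-likelihood test, Benjamini-Hochberg adjustment over the 16778 genes tested). A gene was called at an adjusted p under 0.05 and at least 1.5-fold, the thresholds of the study. Steps were tested on simulated data. Correlations used log2 (CPM + 0.5). Ratios of gene pairs were compared with exact permutation tests (scipy 1.17.1). The biological coefficient of variation was 0.202. No 2 libraries were copies of each other (chi-square per gene between replicates 23.9 to 99.0). Mice of the same number in both groups are different animals.

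The genes named are the 10 granule genes, Cxcr2, genes of the lists (specific, primary and gelatinase granules, transcription factors, receptors and partners, paralogs, cell division, late stage, cell type markers), and the 10 genes most like the granule genes between mice, of which 1 is not reported here. Members and lists were chosen with earlier results of these data known. Cdc25a, Smarcc1, Elp6, Map4, Setd2, Ptpn23, Kif9 and Pth1r were named after their values were seen. Alternatives were RLE, upper-quartile and total-count scaling, library sizes without the 10 genes, DESeq2 1.42.0, other filters and thresholds, the replicate number as a block, the longest transcript as length, and each library left out in turn. The covariate for pairs that met no gene was added after the data were seen.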

Additional observations from a re-analysis of the deposited data

Results flagged for a closer look

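In 2 cases the values set 1 library apart from the other 3 of its group by the gap between samples, out of 40 groups of 4 values examined, where chance gives about 1 in 20. The monocyte and macrophage markers, set beside Hp and Chil3, summed to 826 CPM in WT replicate 1 and to between 708 and 722 CPM in the other WT libraries. Within that list, C1qa, C1qb, C1qc and Vcam1 were instead highest in WT replicate 2. The dendritic cell markers summed to 15.4 CPM in WT replicate 2 and to between 5.59 and 6.23 CPM in the other WT libraries. None of the 10 granule genes had a library set apart in this way in either genotype.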

How the results depend on the processing

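All 10 granule genes kept an adjusted p under 0.05 in the same direction under the 16 alternatives planned, and the number called was 10, or 9 without Hp with upper-quartile normalization, total-count scaling, WT replicate 2 left out or *Cxcr2-/-* replicate 1 left out. With the covariate for pairs that met no gene, 9 were called, Hp losing its call (log2 fold change 0.29, edgeR adjusted p 0.358), as did Cebpe (0.76, 0.0602). Such pairs made up 31.4% to 41.5% in WT and 26.7% to 31.9% in *Cxcr2-/-* libraries, so this covariate was partly confounded with genotype. The log2 fold changes of the other 9 under it ran from 0.65 for Chil1 to 1.85 for Fcnb. With it, genes called fell from 2628 to 1502 higher and from 2628 to 1341 lower, gelatinase granule genes and paralogs called higher were 0, transcription factors were 1 higher and 3 lower, and 1 late stage gene was called higher. With adjusted p alone 3969 genes were called higher, 2 transcription factors and 1 gelatinase gene lower. At 2-fold 1255 genes were higher and 1599 lower, and called higher were 8 of the 10 granule genes, 3 further specific granule genes, 1 gelatinase gene, 1 transcription factor, 0 receptors and partners, 1 paralog and 1 late stage gene, while 0 paralogs were lower. Upper-quartile and total-count scaling each gave 1 gelatinase gene and 1 receptor or partner higher, and upper-quartile scaling 1 gelatinase gene lower and a shift of the median of all genes by -0.12. Transcription factors called lower were 2 with RLE, upper-quartile, total-count scaling, DESeq2, no filter and a filter of 10 counts, and paralogs lower were 2 with no filter.

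With 1 library left out, transcription factors lower ranged from 1 to 2, gelatinase genes higher from 1 to 2, paralogs lower from 1 to 2, and receptors and partners lower from 1 to 2. Replicate numbers did not pair the mice (same-number correlations 0.14, -0.20, 0.21 and -0.30). With the replicate block, 10 granule genes were called and 2 receptors or partners were lower, and all genes gave 2470 higher and 2518 lower. Measured against the longest transcript, 6 of the 10 genes in WT and 8 in *Cxcr2-/-* mice kept their rank per length. By that length Lcn2 and Chil3, like Cd177 and Hp, did not change places between the genotypes, whereas Hp and Pglyrp1 did. The cause of these changes was not tested. Depth did not limit the 10 genes, the lowest count being 801 for Fcnb in WT replicate 4.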
